A study of Saccharomyces cerevisiae with 24 samples.

Results

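Ribonucleotide reductase and its known regulators were followed through a time course of hypoxia in budding yeast, as 9 genes of the 7140 features counted in every library. The 9 were taken by their identifiers, and all 9 were found: RNR1 (YER070W), RNR2 (YJL026W), RNR3 (YIL066C), RNR4 (YGR180C), HUG1 (YML058W-A), SML1 (YML058W), DIF1 (YLR437C), RFX1 (YLR176C, also called CRT1) and DUN1 (YDL101C). Messenger RNA of the strain yMH914 was sequenced at 0 min (air) and after 5, 10, 30 and 60 min, then 120, 180 and 240 min, under pure nitrogen, in 3 courses, with 1 library for each time of each course and 24 libraries in all. The strain is S288C-derived, MATa and GAL2+, carries the alleles ura3D0, his3D200, leu2D0 and lys2-128d and a repaired HAP1, and every library shares that genotype. Cells grew in rich glucose medium without added sterol or unsaturated fatty acid. The 0 min sample was taken in air before the culture was diluted for the nitrogen flasks, and no diluted culture kept in air was analysed here, so that hypoxia and dilution cannot be told apart in a comparison with 0 min. The labels do not say whether the courses came from separate cultures, and p values measure the spread between these libraries, which may be technical.

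Total counts per library ranged from 4980240 to 16346113. Of the deleted markers, LEU2 had no read anywhere and URA3 and HIS3 never had over 2. The a-cell genes STE2 and STE6 had 558 and 407 or more counts per 1000000 counts of the library (CPM) throughout. That unit, of the total count, is used for the mating-type genes. All other CPM, unless stated, used library sizes scaled by TMM factors, which were highest in course 1 at every time. The a-cell genes BAR1 and MFA2 had medians of 217 and 164 CPM, and AGA2 and MFA1 of 27.1 and 12.3 CPM. The alpha-cell genes SAG1 and STE3 had medians of 27.1 and 12.1 CPM, like AGA2 and MFA1. The alpha-factor gene MF(ALPHA)1 never exceeded 5 counts, and MF(ALPHA)2 reached 93 counts (16.3 CPM) with a median of 0.0 CPM. None of the mating-type genes was called at 240 min against 0 min with edgeR over all 3 courses (without course 1, MFA1 and MFA2 were called lower and STE3 higher), although the a-cell genes AGA2 and BAR1 fell by 1.34 and 1.01 on the log2 scale at 240 min against 30 min, calls that were lost without course 2 or course 3 (BAR1 also with the replicate block, at -0.95). Of 6 anaerobic marker genes, 6 rose at 240 min, with log2 fold changes from 3.29 for COX5B to 8.26 for DAN1, and of 4 aerobic ones, 4 fell, with PET9 at -2.34 and CYC1 at -6.01. Without course 2, 1 of the 4 aerobic genes, CYC1, was still called, and without course 3, 2 were. Course 1 stood apart from the others. It gave the lowest TMM-scaled CPM of RNR2 and RNR4 at 8 of 8 times and of RNR1 and RNR3 at 7. It gave the highest of SML1 and DIF1 at 7. By total counts RNR1 at 0 min was instead highest in course 1, at 353 CPM against 333 and 344 CPM. The part of course 1 in the results was not tested beyond leaving it out.

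Ribonucleotide reductase makes the building blocks of DNA by reducing ribonucleotides to deoxyribonucleotides. In yeast the large, catalytic subunit is made by RNR1, or by RNR3, which is little used in undamaged cells. The small subunit is a dimer of the RNR2 and RNR4 products, and its radical is built from iron with molecular oxygen. When DNA is damaged or replication stalls, the kinases Mec1, Rad53 and Dun1 relieve repression by Rfx1, a DNA-binding protein that recruits the corepressor Tup1-Cyc8, and RNR2, RNR3, RNR4 and HUG1 are then induced. The same kinases remove the inhibitor Sml1, which binds the large subunit, and Dif1, which brings the small subunit into the nucleus, while Hug1 is a small protein that binds the small subunit. Rox1 and Mot3, which repress hypoxic genes in air, are also known to repress RNR genes.

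Stretches upstream of the subunit genes and HUG1 are shown for the motifs they hold, those of RNR3, HUG1, RNR2 and RNR4 for their Rfx1 cores and that of RNR1 for its MCB elements, since the single Rfx1 core of RNR1 lies nearer to the start codon (-169 to -164) and outside the stretch. Sequences were read from the R64 genome (RefSeq), on the strand of the gene, 5′ to 3′, with positions counted back from the start codon. Capitals mark matches to 3 motifs on either strand. The Rfx1 core is GTTGCC, shown as its complement GGCAAC where it lies on the other strand. The MCB element of genes expressed at the start of S phase is ACGCGT, the same on both strands. The Rox1 core is ATTGTT, or AACAAT on the other strand. The windows are chrIX:240829-241008 (minus strand, -300 to -121) for RNR3, chrXIII:158460-158639 (plus strand, -300 to -121) for HUG1, chrX:391904-392063 (plus strand, -500 to -341) for RNR2, chrVII:856662-856761 (minus strand, -460 to -361) for RNR4 and chrV:298450-298659 (plus strand, -500 to -291) for RNR1. The RNR2 window overlaps the open reading frame YJL027C, and the others overlap no annotated gene.
RNR3: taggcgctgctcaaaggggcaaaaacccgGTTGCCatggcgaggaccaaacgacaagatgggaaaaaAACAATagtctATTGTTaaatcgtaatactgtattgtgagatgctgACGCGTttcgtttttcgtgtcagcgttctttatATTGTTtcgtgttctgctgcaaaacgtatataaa
HUG1: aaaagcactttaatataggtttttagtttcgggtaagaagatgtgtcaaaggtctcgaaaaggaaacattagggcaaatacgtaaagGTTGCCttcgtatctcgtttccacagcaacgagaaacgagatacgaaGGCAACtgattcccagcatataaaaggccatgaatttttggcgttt
RNR2: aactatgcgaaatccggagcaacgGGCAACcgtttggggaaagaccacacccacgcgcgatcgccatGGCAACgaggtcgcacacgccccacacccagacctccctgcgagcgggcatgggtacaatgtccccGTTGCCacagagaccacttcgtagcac
RNR4: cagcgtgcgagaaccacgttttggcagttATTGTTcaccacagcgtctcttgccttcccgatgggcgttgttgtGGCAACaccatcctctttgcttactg
RNR1: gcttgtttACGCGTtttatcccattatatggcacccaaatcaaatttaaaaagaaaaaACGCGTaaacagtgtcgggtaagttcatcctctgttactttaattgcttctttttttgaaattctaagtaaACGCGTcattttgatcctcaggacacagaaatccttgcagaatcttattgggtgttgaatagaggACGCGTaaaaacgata

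Within 500 bases of the start codon the Rfx1 core was found once in RNR1, RNR3 and RNR4, in 2 places in HUG1 and in 3 places in RNR2, so in 5 of the 9 genes, against 13.7% of 6006 promoters of that length. RNR1 held 4 MCB elements, and RNR3 and DUN1 held 1 each, against 5.43% of promoters with any. The Rox1 core was in 6 of the 9 genes, with 3 copies in RNR3, and in 48.9% of all promoters. The full Rfx1 X-box is a degenerate palindrome and was searched with a set pattern of letters that is not printed here. That pattern matched none of the 9 windows and 0.483% of promoters. Sites that depart from the pattern were not counted, so this result does not show that the 9 genes lack an X-box. These matches describe letters only. The motifs as searched do not overlap one another.

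The members differed widely in level. Per kilobase of coding sequence, SML1 had the highest level at 0 min, 547 ± 21.2 CPM per kb (SD, n = 3), followed by RNR4 with 345 ± 81.9, RNR2 with 319 ± 105 and RNR1 with 147 ± 14.1 CPM per kb. DIF1 had 71.2 ± 20.7, HUG1 25.1 ± 10.1, DUN1 22.5 ± 9.70, RFX1 8.01 ± 1.14 and RNR3 2.74 ± 0.741 CPM per kb, so that RNR3 was the lowest of the 9. The ranges of RNR4 and RNR2 overlapped, as did those of HUG1 and DUN1. At 240 min the order was HUG1 (702 ± 93.6 CPM per kb), RNR4 (676 ± 213), RNR2 (624 ± 239), SML1 (444 ± 144), RNR1 (118 ± 11.02), DIF1 (118 ± 40.5), RNR3 (58.7 ± 24.9), DUN1 (28.5 ± 4.01) and RFX1 (14.8 ± 2.56). The ranges of HUG1, RNR4 and RNR2 overlapped at that time, and so did those of RNR2 and SML1 and of RNR1 and DIF1. The division used the coding length, which is 207 bases for HUG1 and 2610 for RNR3, and not the length of the transcript.

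All 9 genes passed the filter on low counts. A gene was called when edgeR's quasi-likelihood F-test gave a Benjamini-Hochberg adjusted p under 0.05 over the 6262 genes tested and the change was at least 2-fold. Over the 8 times, 4 of the 9 were called, HUG1, RNR3, RNR4 and RNR2, against 19.8% of all genes. At 240 min against 0 min 2 were called, HUG1 and RNR3, against 15.6% of all genes, and at 120 min against 0 min the same 2 genes, against 10.4%. At 240 min against 30 min HUG1, RNR3 and RNR4 were called, 3 of 9, against 6.20% of all genes. The median log2 fold change of the 9 genes at 240 min against 0 min was 0.89, and that of all genes tested was -0.02.

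**Figure D1:**
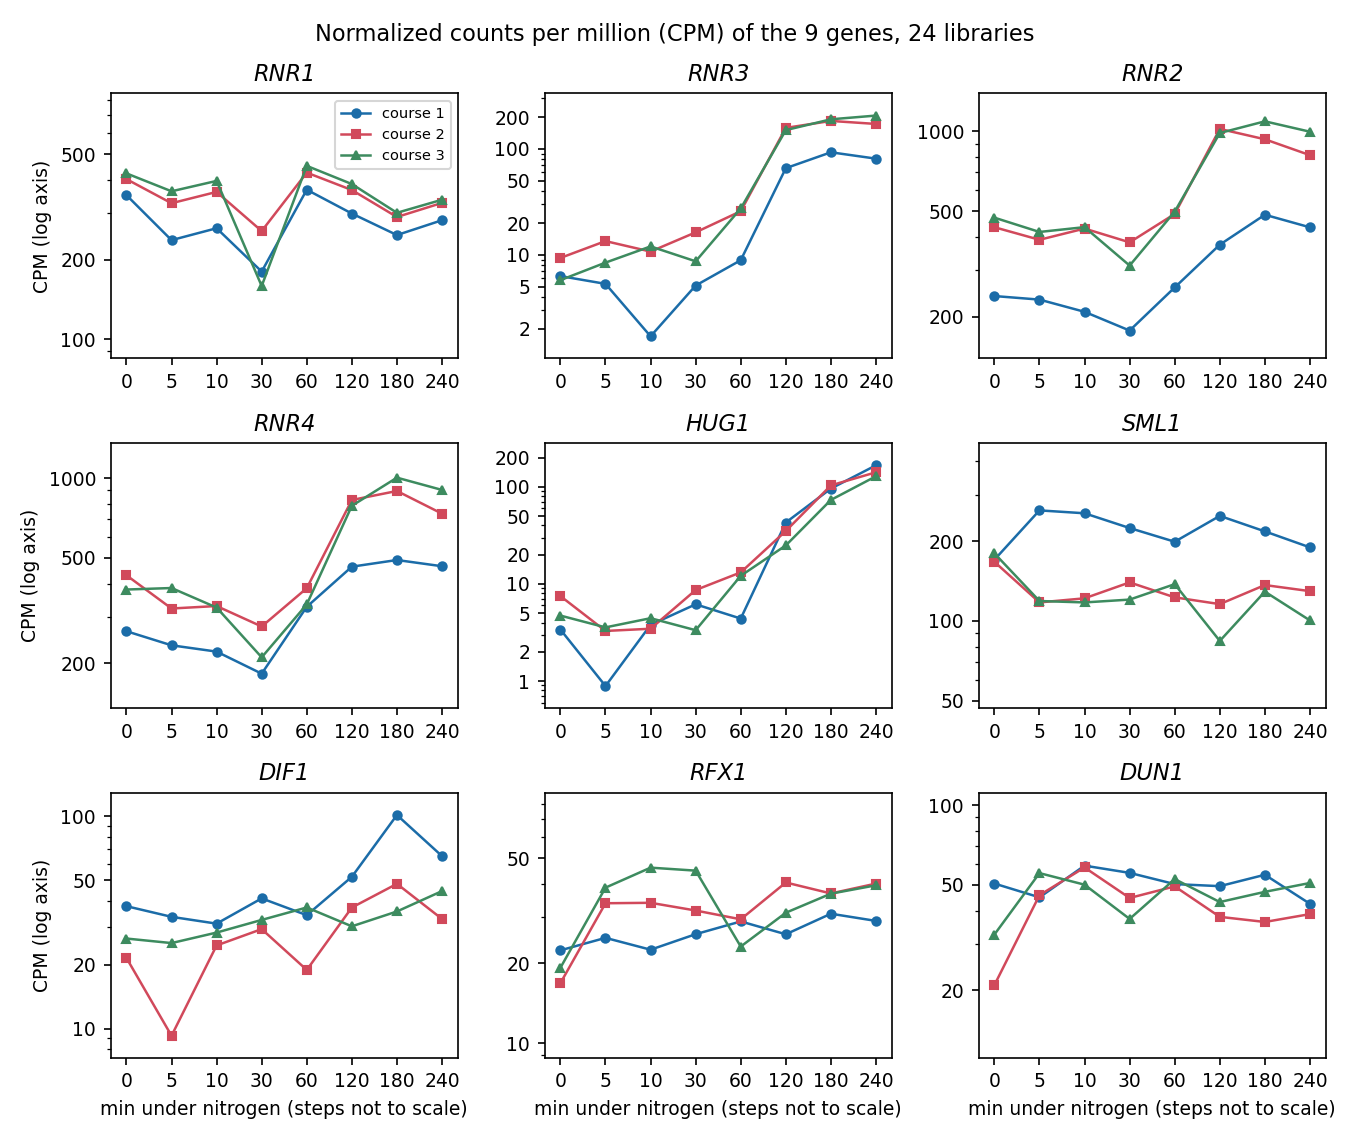
CPM of each gene (y, log axis with its own range in each panel) at each time under nitrogen (x, min, evenly spaced), 1 point per library and 1 line per course. RNR3 and HUG1 stayed under 28 CPM up to 60 min and were above 60 CPM in all 3 courses at 180 and 240 min, RNR1 was lowest at 30 min, and SML1 and DUN1 show no common course.

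The mixture of messages for the large subunit changed over time. RNR3 had 81.0, 172 and 207 CPM at 240 min in courses 1, 2 and 3, against 6.31, 9.36 and 5.78 CPM at 0 min. In course 1 its CPM over the 8 times was 6.31, 5.33, 1.70, 5.14, 8.91, 65.9, 93.0 and 81.0, in course 2 it was 9.36, 13.5, 10.7, 16.3, 25.8, 158, 184 and 172, and in course 3 it was 5.78, 8.46, 12.0, 8.70, 27.4, 151, 190 and 207. The step lay between 60 and 120 min in every course, and every library from 120 min on was above every library up to 60 min. These are counts of 18 to 308 reads per library up to 60 min and of 489 to 3032 reads from 120 min on. RNR3 rose 4.43 ± 0.68 (log2 fold change ± SE) at 240 min against 0 min (edgeR adjusted p = 7.1e-05) and 4.13 ± 0.67 at 120 min against 0 min (edgeR adjusted p = 0.00029), with 12.8-fold, 18.4-fold and 35.7-fold higher CPM at 240 min in courses 1, 2 and 3. At 240 min against 30 min it rose by 3.93 ± 0.66 (edgeR adjusted p = 0.00060). Without course 2 or without course 3 the call at 120 min was lost (edgeR adjusted p = 0.0639 and 0.0645), and so was that at 240 min against 30 min (edgeR adjusted p = 0.0570 and 0.129), while the call at 240 min against 0 min held (edgeR adjusted p = 0.0195 and 0.0311).

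RNR1, the large-subunit gene used in growing cells, took another course. It had 281, 327 and 336 CPM at 240 min in courses 1, 2 and 3, against 350, 402 and 423 CPM at 0 min. Over the 8 times its CPM was 350, 237, 263, 180, 367, 298, 247 and 281 in course 1, 402, 326, 360, 256, 426, 366, 289 and 327 in course 2, and 423, 362, 396, 159, 451, 385, 300 and 336 in course 3. In every course the lowest value was at 30 min and the highest at 60 min, and every 30 min library was below every library of 10 and 60 min. At 30 min against 0 min the log2 fold change was -0.98 ± 0.21 (edgeR adjusted p = 0.0013), which stops short of the 2-fold minimum, and the CPM was 0.514, 0.637 and 0.376 times that at 0 min in courses 1, 2 and 3. At 60 min against 30 min, a comparison added after the values were seen, RNR1 rose 1.06 ± 0.21 (edgeR adjusted p = 0.012). It was the only member called there, against 1.36% of all genes. The call was lost without course 2 or without course 3 (edgeR adjusted p = 0.480 and 0.582). Over all genes 2 of 6319 were called in that step without course 2 and 0 of 6293 without course 3. Over time RNR1 had an adjusted p of 0.015 with edgeR and was not called for want of a 2-fold change.

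The share of RNR3 in the large-subunit message was computed within each library, per coding kb, and needs no scaling between libraries. RNR3 made up 22.7%, 35.0% and 38.6% of RNR1 plus RNR3 at 240 min in courses 1, 2 and 3, against 1.81%, 2.32% and 1.38% at 0 min. The mean was 32.1% ± 8.30 at 240 min and 1.84% ± 0.474 at 0 min (SD, n = 3 each), and the difference of 30.3 percentage points gave p = 0.10 in an exact two-sided permutation test, the smallest p that 3 against 3 allows. At 30 min the share was 4.75% ± 1.71 (SD, n = 3), above each 0 min library, with p = 0.10 in the exact permutation test. RNR1 was then at 0.514, 0.637 and 0.376 times its 0 min CPM in courses 1, 2 and 3 and RNR3 at 0.814, 1.74 and 1.51 times, so in course 1 the share was higher although RNR3 was lower. At 120 and 180 min it was 25.9% ± 6.53 and 35.5% ± 6.69 (SD, n = 3 each), so RNR1 remained the larger part in every library. The coding sequences of RNR1 and RNR3 are 74.6% identical, with a longest identical run of 38 bases and no stretch of 65 bases, the read length, in common. No read of full length can match both exactly.

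**Figure D2:**
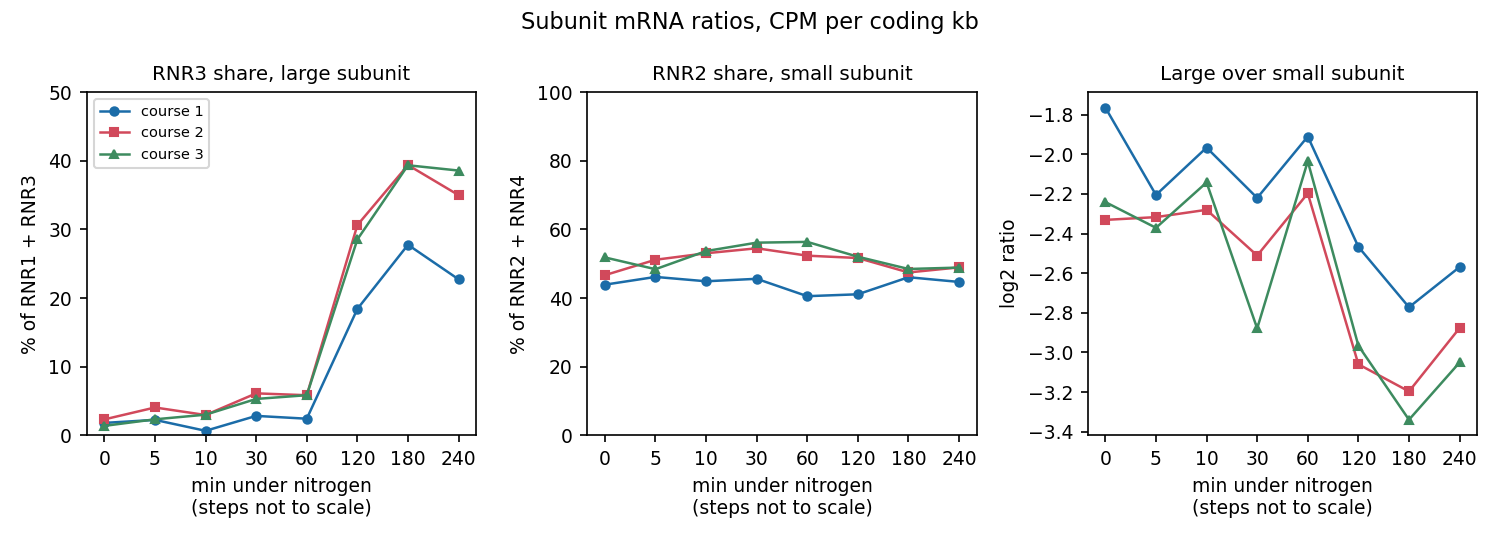
RNR3 as a percent of RNR1 plus RNR3 (left), RNR2 as a percent of RNR2 plus RNR4 (middle) and the log2 ratio of the large-subunit to the small-subunit genes (right), all per coding kb, by time under nitrogen (x, min, evenly spaced), 1 point per library and 1 line per course. RNR3 took up to 39.4% of the large-subunit message at 180 min, while the RNR2 share stayed between 40.5% and 56.3%.

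Both small-subunit genes were called over time, with their largest change from 0 min at 180 min. RNR2 had 435, 814 and 998 CPM at 240 min in courses 1, 2 and 3, against 239, 435 and 473 CPM at 0 min. Its CPM over the 8 times was 239, 232, 208, 177, 258, 374, 485 and 435 in course 1, 435, 390, 430, 381, 488, 1022, 934 and 814 in course 2, and 473, 417, 435, 312, 498, 986, 1092 and 998 in course 3. RNR2 was lowest at 30 min in each course, and its 240 min value in course 1 was no higher than the 0 min values of the other courses, so the libraries of 240 and 0 min overlapped. In CPM of the total count these libraries did not overlap, with 500, 819 and 1017 at 240 min against 241, 360 and 384 at 0 min. Within a course the CPM at 240 min was 1.82, 1.87 and 2.11 times that at 0 min. RNR2 was called over time (largest log2 fold change 1.13, at 180 min; edgeR adjusted p = 0.036), but not at 240 min against 0 min (0.97 ± 0.45; edgeR adjusted p = 0.14) or against 30 min (1.37 ± 0.46; edgeR adjusted p = 0.066). With the course as a block the last of these was called (1.35; edgeR adjusted p = 1.1e-07), and without course 2 or course 3 the call over time was lost (edgeR adjusted p = 0.706 and 0.795).

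RNR4, whose product pairs with that of RNR2, had 465, 735 and 903 CPM at 240 min in courses 1, 2 and 3, against 265, 430 and 380 CPM at 0 min. Over the 8 times its CPM was 265, 234, 222, 183, 327, 464, 491 and 465 in course 1, 430, 322, 329, 276, 385, 828, 895 and 735 in course 2, and 380, 385, 325, 211, 334, 787, 1005 and 903 in course 3. It too was lowest at 30 min in every course, and every library from 120 min on was above every 0 min library. RNR4 was called over time (largest log2 fold change 1.15, at 180 min; edgeR adjusted p = 0.00034) and rose 1.65 ± 0.32 at 240 min against 30 min (edgeR adjusted p = 0.0021). At 240 min against 0 min its change of 0.97 ± 0.31 had an adjusted p of 0.029 with edgeR but was under the 2-fold minimum, as was that at 120 min (0.95 ± 0.31; edgeR adjusted p = 0.042). Without course 2 or course 3 both calls were lost (edgeR adjusted p = 0.134 and 0.163 over time, 0.116 and 0.222 at 240 min against 30 min), and with counts scaled by their totals both genes were called at 120 and 240 min.

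The RNR2 share of the small-subunit message differed between 240 and 0 min by 0.034 percentage points, less than its spread between libraries. RNR2 made up 47.5% ± 2.43 of RNR2 plus RNR4 at 240 min and 47.5% ± 4.03 at 0 min (SD, n = 3 each; exact permutation test, p = 1.0), and 52.1% ± 5.67 at 30 min (SD, n = 3; exact permutation test against 0 min, p = 0.30). The large-subunit genes together had 0.169, 0.136 and 0.121 times the level of the small-subunit genes at 240 min in courses 1, 2 and 3, against 0.294, 0.199 and 0.212 times at 0 min. The log2 ratio differed by -0.72 at 240 min against 0 min, with no overlap between the 2 times (exact two-sided permutation test, p = 0.10, n = 3 each), and by -0.42 at 30 min, where the libraries overlapped (exact permutation test, p = 0.30). These 3 measures at 2 times made 6 tests, and the lowest adjusted p over them was 0.20, as no test could pass with 3 libraries a time.

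HUG1 had the largest fitted rise of the 9 at 240 min, although within the SE of that of RNR3. Its product binds the small subunit, and its gene lies 416 bases upstream of SML1 on chromosome XIII. HUG1 had 166, 141 and 128 CPM at 240 min in courses 1, 2 and 3, against 3.39, 7.49 and 4.72 CPM at 0 min. Over the 8 times its CPM was 3.39, 0.888, 3.79, 6.16, 4.40, 42.9, 95.8 and 166 in course 1, 7.49, 3.28, 3.46, 8.65, 13.1, 35.1, 103 and 141 in course 2, and 4.72, 3.57, 4.44, 3.34, 12.1, 24.9, 73.2 and 128 in course 3. It was still climbing at the last time in all 3 courses, and the libraries of 120, 180 and 240 min did not overlap with one another or with any earlier time. The early values rest on few reads, from 8 to 146 per library up to 60 min. HUG1 rose 4.81 ± 0.50 at 240 min against 0 min (edgeR adjusted p = 1.5e-06) and 2.73 ± 0.46 at 120 min against 0 min (edgeR adjusted p = 0.00040), and the second of these was lost without course 2 (3.09; edgeR adjusted p = 0.0503). At 240 min against 30 min it rose 4.58 ± 0.49 (edgeR adjusted p = 5.8e-06).

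The late step set HUG1 apart in timing from RNR3. Between 120 and 240 min, a comparison added after the values were seen, HUG1 was 3.88, 4.02 and 5.15 times higher at 240 min in courses 1, 2 and 3, and RNR3 1.23, 1.09 and 1.37 times. HUG1 was the only member called in that step (2.08 ± 0.44; edgeR adjusted p = 0.041), against 0.303% of all genes, and RNR3 changed by 0.30 ± 0.58 (edgeR adjusted p = 1.0). The call was lost without course 2 or course 3 (edgeR adjusted p = 1.0 for each). Over all genes 2 of 6319 were called in that step without course 2 and 1 of 6293 without course 3. The log2 ratio of HUG1 to RNR3, in CPM undivided by coding length, was 1.04, -0.29 and -0.69 at 240 min (courses 1, 2, 3). At 120 min it was -0.62, -2.17 and -2.60, so it was higher at 240 min in 3 of 3 courses, by 1.66 to 1.91. Per coding kb HUG1 was above RNR3 at 240 min in every course, with 804, 681 and 620 against 31.0, 66.0 and 79.1 CPM. The difference between the genes was chosen after the values were seen and was not tested.

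The other inhibitor genes were not called in any of these comparisons in the edgeR fit of all 24 libraries with TMM scaling and no course term. SML1, whose product binds and inhibits the large subunit, had 190, 130 and 100 CPM at 240 min in courses 1, 2 and 3, against 170, 167 and 180 CPM at 0 min. Its log2 fold change was -0.30 ± 0.42 (edgeR adjusted p = 0.72), and the courses went opposite ways, with a higher value at 240 min in course 1 and a lower one in courses 2 and 3. SML1 ranged from 170 to 261 CPM in course 1, from 116 to 167 in course 2 and from 84.0 to 180 in course 3. DIF1, whose product imports the small subunit into the nucleus, had 65.03, 32.9 and 44.5 CPM at 240 min in courses 1, 2 and 3, against 37.8, 21.5 and 26.6 CPM at 0 min. The 2 times overlapped, although each course was higher at 240 min, by 1.72, 1.53 and 1.67 times, and the log2 fold change was 0.73 ± 0.42 (edgeR adjusted p = 0.26). Over time DIF1 was not called (largest log2 fold change 1.10, at 180 min; edgeR adjusted p = 0.15), but with the course as a block it was (1.06; edgeR adjusted p = 0.0016).

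RFX1, the repressor of the RNR genes, was not called in any comparison in the fit of all 24 libraries with TMM scaling, and passed on adjusted p alone at 30 and 240 min against 0 min. It had 28.9, 40.0 and 39.4 CPM at 240 min in courses 1, 2 and 3, against 22.4, 16.9 and 19.3 CPM at 0 min, and at each of the 7 later times every library was above every 0 min library. Its log2 fold change was 0.80 ± 0.27 at 30 min against 0 min (edgeR adjusted p = 0.030) and 0.89 ± 0.27 at 240 min against 0 min (edgeR adjusted p = 0.019), neither of them called because of the 2-fold minimum. At 5, 60 and 120 min it was 0.73 ± 0.27, 0.47 ± 0.26 and 0.73 ± 0.27 (edgeR adjusted p = 0.10, 0.27 and 0.070). In course 1 the CPM at 240 min was 1.29 times that at 0 min, and in courses 2 and 3 it was 2.38 and 2.05 times. Without course 1 RFX1 was called at 30 min (1.16; edgeR adjusted p = 0.00081) and at 240 min (1.21; edgeR adjusted p = 0.00062), and without course 2 or course 3 its adjusted p at 240 min was 0.398 and 0.172 with edgeR. With total-count scaling it was called at 240 min (1.12; edgeR adjusted p = 0.0015).

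DUN1, the kinase nearest to the RNR proteins in the checkpoint cascade, had 42.4, 38.8 and 50.8 CPM at 240 min in courses 1, 2 and 3, against 50.6, 20.9 and 32.5 CPM at 0 min. The libraries of the 2 times overlapped, and the log2 fold change was 0.34 ± 0.24 (edgeR adjusted p = 0.38). At 60 min the values drew together at 50.3, 49.3 and 52.6 CPM, with a log2 fold change of 0.55 ± 0.24 against 0 min (edgeR adjusted p = 0.15). Without course 1, which was high at 0 min, that step was called (1.00; edgeR adjusted p = 0.0021).

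**Figure D3:**
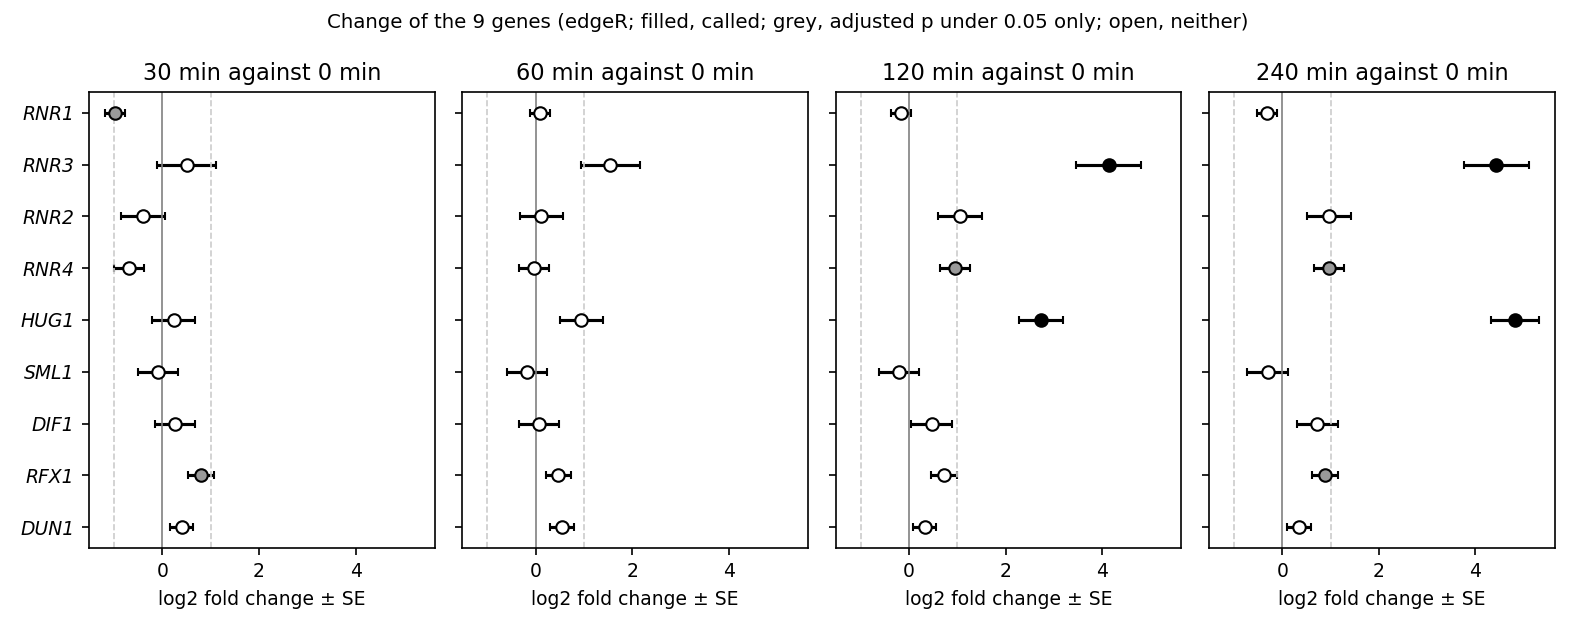
Log2 fold change ± SE (x) of each of the 9 genes (y) at 30, 60, 120 and 240 min against 0 min from the fit of all 24 libraries. Filled points were called, grey points had an adjusted p under 0.05 but less than a 2-fold change, and open points had neither, and only RNR3 and HUG1 are filled, at 120 and 240 min.

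At 5 min against 0 min edgeR called 0 of the 9, against 5.92% of all genes, with 2 at an unadjusted p under 0.05 and 0 called by DESeq2. At 30 min against 0 min edgeR called 0 of the 9, against 17.8% of all genes, with 3 at an unadjusted p under 0.05 and 0 called by DESeq2, and RNR1 and RFX1 passed on adjusted p alone, in opposite directions. At 60 min against 0 min, added after the values were seen, edgeR called 0 of the 9, against 11.6% of all genes, with 3 at an unadjusted p under 0.05, and DESeq2 called RNR3. RNR3 was then at 1.55 ± 0.61 (edgeR adjusted p = 0.096), and with the course as a block it was called at 60 min against 0 min (1.40; edgeR adjusted p = 0.00073) and against 30 min (1.02; edgeR adjusted p = 0.024). Of 12 genes of the general stress response, the numbers called higher at 5, 30, 60 and 240 min, each against 0 min, were 9, 12, 11 and 10. Without course 2 these counts were 0, 8, 2 and 0, and without course 3 they were 0, 10, 6 and 5. Over all genes 4, 666, 162 and 375 of 6319 were then called without course 2. Without course 3 they were 34, 675, 301 and 536 of 6293. The part of this response in the values of the 9 genes was not tested.

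Each course was also fitted alone with the quadratic in time that the study's methods give, by DESeq2's likelihood ratio test among genes with at least a 2-fold range. In course 1 the test called 5 of the 9, RNR2, RNR3, RNR4, HUG1 and DIF1, against 24.5% of the 2868 genes tested. Of the 9, DUN1, RFX1 and SML1 had under a 2-fold range in course 1 and were not among the genes tested. The strongest was HUG1 (DESeq2 adjusted p = 4.3e-22), followed by RNR3 (DESeq2 adjusted p = 1.2e-11), with RNR2 at 0.00021, RNR4 at 0.00040 and DIF1 at 0.0033. In courses 2 and 3 the same test called HUG1, RNR3, RNR2 and RNR4 in each, against 19.5% of 2901 and 14.0% of 3374 genes tested. DIF1 had a DESeq2 adjusted p of 0.11 in course 2 and 0.38 in course 3. Under a 2-fold range, and so not tested, were RNR1 and SML1 in course 2 and SML1 in course 3. RNR1, with its dip at 30 min, had a DESeq2 adjusted p of 0.98 in course 1. With 1 library a time these p values rest on the scatter about the curve and have no replicate behind them.

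Among the genes known to repress RNR transcription, those of the DNA-binding proteins Rox1 and Mot3 fell. ROX1 had 22.0, 18.8 and 3.13 CPM at 240 min in courses 1, 2 and 3, against 113, 78.0 and 76.9 CPM at 0 min, and MOT3 had 43.1, 20.4 and 8.65 CPM at 240 min, against 154, 81.3 and 78.5 CPM at 0 min. Neither gene's libraries overlapped between these times. ROX1 fell by 2.61 on the log2 scale (SE 0.57; edgeR adjusted p = 0.0019) and MOT3 fell by 2.13 (SE 0.39; edgeR adjusted p = 0.00048), and both were already lower at 30 min, by -1.61 ± 0.55 and -1.34 ± 0.38. Without course 2 neither was called at 240 min, with ROX1 at -2.91 (edgeR adjusted p = 0.077) and MOT3 at -2.16 (edgeR adjusted p = 0.053), and both calls at 30 min were lost without course 1, without course 2 and with total-count scaling. The corepressor genes TUP1 (-0.23 ± 0.37) and CYC8 (-0.49 ± 0.42) did not pass the test at 240 min. The list of 4 thus had 2 lower and 0 higher at 240 min, when 15.6% of all genes were called in either direction. Its median was -1.31, against -0.02 for all genes.

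The messages of the checkpoint genes upstream of Rfx1 were not called. Of 14 checkpoint kinases and adaptors edgeR called 0 at 240 min against 0 min, when 15.6% of all genes were called. At an unadjusted p under 0.05 there was 1, DESeq2 called 0, and the median log2 fold change of the 14 was 0.08. Without course 1, 1 was called, CSM3, a replication fork protein gene (1.32; edgeR adjusted p = 7.8e-05). MEC1, the sensor kinase, was at 0.06 ± 0.43 and RAD53, the effector kinase, at 0.12 ± 0.27. RAD53 had 26.9, 20.9 and 15.6 CPM at 240 min in courses 1, 2 and 3, against 27.7, 13.0 and 17.4 CPM at 0 min, and the libraries overlapped. These are messages and say nothing of kinase activity. Of 13 other genes induced by DNA damage, 11 passed the filter and 2 rose at 240 min, a share near the 15.6% of all genes called in either direction: PHR1, the photolyase gene (1.84 ± 0.46; edgeR adjusted p = 0.0054), and MAG1, a DNA glycosylase gene (1.31 ± 0.26; edgeR adjusted p = 0.00089). The same 2 rose at 30 min, when 17.8% of all genes were called and RNR3 and HUG1 were not, with PHR1 at 2.49 ± 0.47 and MAG1 at 1.48 ± 0.26. At 240 min PHR1 lost its call without course 2 (1.49; edgeR adjusted p = 0.28) or course 3 (1.94; edgeR adjusted p = 0.065) and MAG1 without course 2 (1.35; edgeR adjusted p = 0.072), whereas both kept theirs at 30 min without any 1 course. The median of the 11 was -0.03 at 240 min.

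Genes that serve the small subunit went different ways. WTM1, whose product holds the small subunit in the nucleus, had 471, 1184 and 1160 CPM at 240 min in courses 1, 2 and 3, against 177, 272 and 259 CPM at 0 min, and rose 1.99 ± 0.51 on the log2 scale (edgeR adjusted p = 0.0073). The call was lost without course 2 (1.94; edgeR adjusted p = 0.19) and without course 3 (1.91; edgeR adjusted p = 0.17). WTM2 (0.41 ± 0.24) and the importin gene KAP122 (-0.57 ± 0.27) were not called at 240 min. DRE2, which with TAH18 passes electrons to cytosolic iron-sulfur assembly and to the small subunit's cofactor, had 61.1, 46.5 and 37.6 CPM at 240 min, against 211, 180 and 197 CPM at 0 min, and fell by 2.02 on the log2 scale (SE 0.21; edgeR adjusted p = 1.8e-06). TAH18 fell by 1.84 at 30 min (SE 0.19; edgeR adjusted p = 4.3e-07) and stood at -0.91 ± 0.18 at 240 min, where it was called without course 1 (-1.09; edgeR adjusted p = 0.00021). DRE2 at 240 min and TAH18 at 30 min stayed called without any 1 course. The glutaredoxin genes GRX3 (-0.15 ± 0.25) and GRX4 (-0.48 ± 0.48) were not called, nor were the genes of the iron-starvation decay factors CTH1 (0.10 ± 0.16) and TIS11 (-0.71 ± 0.91).

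Other genes of deoxynucleotide supply and of replication were called at 240 min against 0 min in a share near or below that of all genes. Of 6 genes for thymidylate and deoxynucleotide enzymes, 1 rose at 240 min, near the 15.6% of all genes called in either direction. It was YNK1, the nucleoside diphosphate kinase gene (1.51 ± 0.28; edgeR adjusted p = 0.00051). DFR1, the dihydrofolate reductase gene, fell by 1.14 at 30 min (edgeR adjusted p = 0.0032), when 17.8% of all genes were called. YNK1 lost its call without course 2 (1.46; edgeR adjusted p = 0.068), and DFR1 without course 2 (-1.16; edgeR adjusted p = 0.098), without course 3 (-0.81; edgeR adjusted p = 0.24) and with total-count scaling (-0.88). CDC21 (0.25 ± 0.29), CDC8 (-0.14 ± 0.36), DCD1 (-0.18 ± 0.36) and DUT1 (-0.77 ± 0.44) were not called. Of 6 regulators of transcription at the start of the cycle edgeR called 0 at 240 min, against 15.6% of all genes. At an unadjusted p under 0.05 there were 0, and DESeq2 called 0. Their changes ran from -0.80 for NRM1, a repressor of MCB genes, to 0.30 for SWI4. MBP1 was at 0.13, SWI6 at 0.25, STB1 at -0.18 and TOS4 at -0.65. Of 25 genes of the replication machinery edgeR called 0 at 240 min, against 15.6% of all genes, and their median was -0.30. At an unadjusted p under 0.05 there were 3, and DESeq2 called 1. That gene was MCM3, a subunit gene of the replicative helicase (-1.11 with DESeq2), which edgeR also called with the replicate block (-1.05) and without course 1 (-1.22), where CLB6, an S-phase cyclin gene, was called too (-1.50). In bulk RNA a smaller share of cells in S phase and less message per cell cannot be told apart. DMC1, a meiotic recombinase gene, was at 2.41 ± 1.74 (edgeR adjusted p = 0.39), with 26.6, 1.41 and 0.477 CPM at 240 min in courses 1, 2 and 3, against 3.96, 0.156 and 1.16 CPM at 0 min.

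**Figure D4:**
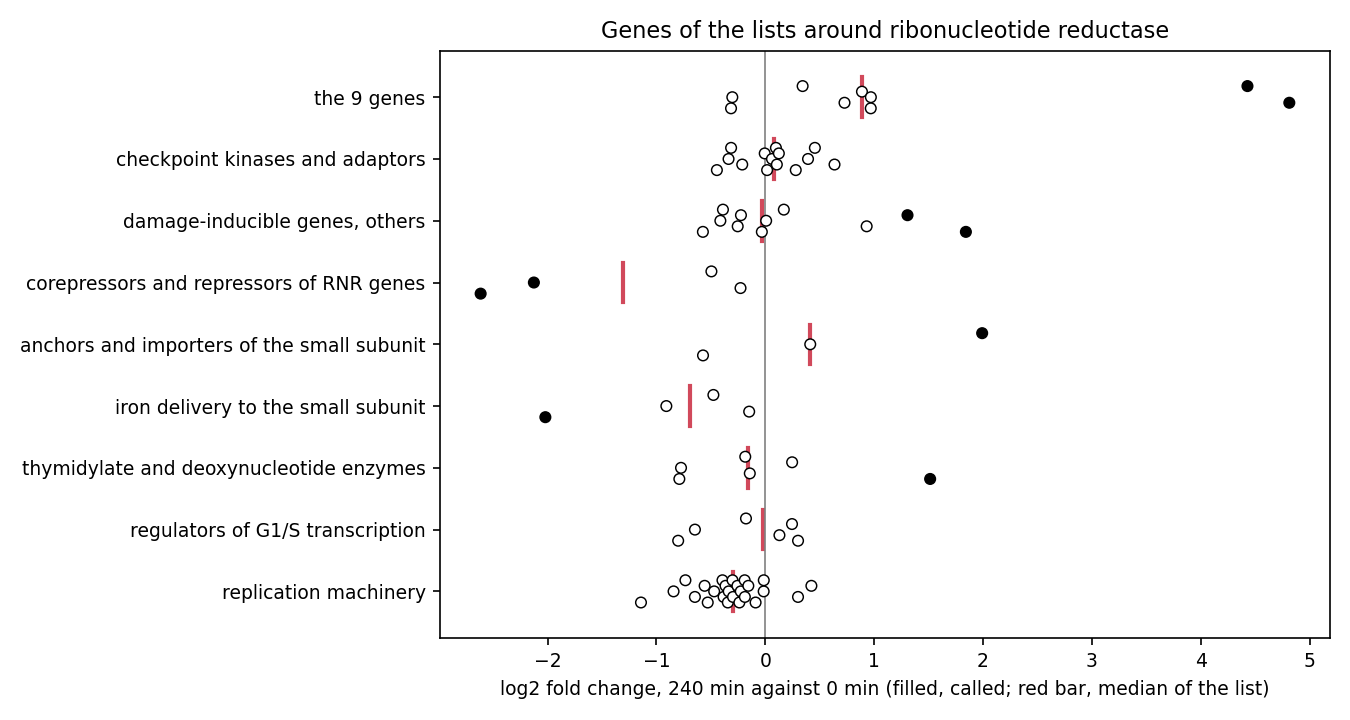
Log2 fold change at 240 min against 0 min (x) of the 9 genes and of the genes in 8 lists around them (y), 1 point per gene, filled where called, with the median of each list as a red bar. RNR3 and HUG1 are the 2 filled points of the 9, ROX1 and MOT3 the 2 filled points of the repressor list, and no point is filled in the fit of all 3 courses among the checkpoint, cycle and replication genes.

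Likeness in time was measured as the lowest of the 3 Pearson correlations, 1 per course, of log2 CPM over the 8 times, and is given as a description. The 8 points of a course carry 1 replicate number, and the sources used here do not say whether they share a culture. The 5 genes most like RNR3 were DAN1 (0.966), ISC1 (0.964), PBI1 (0.954), UBC6 (0.953) and YGL039W (0.947), and RNR2 came close to them, with a lowest correlation of 0.946. RNR4 had 0.900 and HUG1 0.911 with RNR3, while DIF1 had 0.698, RFX1 0.138, RNR1 -0.206, DUN1 -0.416 and SML1 -0.600. Those most like HUG1 were YPR145C-A (0.961), PBI1 (0.959), AUS1 (0.958), SRO77 (0.955) and ROX3 (0.950). Those most like RNR1 were less close, MSH6 (0.784), a mismatch repair gene, RIF1 (0.784), CWC2 (0.736), KEL3 (0.677) and OTU2 (0.676). RNR1 was not like the other subunit genes over time, with a lowest correlation of -0.04 with RNR2 and of 0.01 with RNR4.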

How the data were processed

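The deposited values are raw counts per annotated feature. The authors trimmed reads of 65 bases, mapped them to the R64 genome with TopHat2 and counted them with HTSeq; versions and the strand setting are not given in the sources used here, and reads mapping to several places are left out by default. These steps are stated for 1 course. Genes tested had enough counts by filterByExpr of edgeR 4.0.16 (R 4.3.3). Counts were scaled by TMM and fitted with time as a factor over 24 libraries. Contrasts were tested by the quasi-likelihood F-test, which was checked on simulated counts. Those counts had a smaller spread than the data and no course effect, and only well-counted genes were changed. The check therefore does not cover differences between courses or genes of few reads. DESeq2 1.42.0 served as the alternative and for single courses. Levels of different genes were compared per coding kb, except in the log2 ratio of HUG1 to RNR3, which was taken of CPM. The depth of each library sets the counting error, which matters for HUG1 and RNR3 before 120 min.

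Libraries of 1 course deviated together from the means of their times. The correlations were 0.777 to 0.913, 0.565 to 0.728 and 0.498 to 0.736 in courses 1, 2 and 3 over 28 pairs each. Deviations from a mean cancel out at each time, so an offset of course 1 alone also correlates the libraries of courses 2 and 3. The correlations therefore cannot show that the numbers of courses 2 and 3 pair their libraries. The main fit has no course term, so differences between courses enter its SE and p values. Over all genes 1830 were called over time with the course as a block, against 1241 in the main fit. The course as a block was an alternative, beside DESeq2, RLE factors, scaling by total counts, dropping the filter or the fold minimum, and leaving out each course.

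The members, lists and comparisons were chosen with earlier results of these data known, and 3 comparisons (60 min against 0 and 30 min, 240 min against 120 min) after the values were seen. Genes named are the 9 members, the 5 most like each of RNR3, HUG1 and RNR1, up to 4 called genes of the largest change in each list, all genes of lists of 6 or fewer, and RAD53, MEC1, ROX1, MOT3, TUP1, CYC8, WTM1 and DMC1. CSM3, MCM3 and CLB6 were named after their values were seen. The result of 1 gene of the lists is not reported here. Lists were described by counts and medians, with no set test. Gene positions and upstream windows came from the RefSeq R64 annotation, in which the 9 coding sequences overlap no other gene.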

Additional observations from a re-analysis of the deposited data

How the results depend on the processing

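No change of a member turned its direction past the threshold under any alternative. RNR3 and HUG1 stayed called over time and at 240 min against 0 min under every one of them. Most other counts rested on the scaling and on the number of courses. With total-count scaling 4 members were called at 120 min, 5 at 240 min and 1 at 60 min against 0 min, where the median of all genes moved to 0.21, 0.24 and 0.28 on the log2 scale, and over all genes 647 were called higher and 335 lower at 240 min against 0 min, against 447 and 528 with TMM. Without the fold minimum 2 members passed at 30 min and 4 at 240 min against 0 min, counts for which no share of all genes is given here. DESeq2 called 1 member at 60 min against 0 min, where it called 799 of 6262 genes. Leaving out 1 course, members called ranged from 2 to 6 over time, 0 to 1 at 5 min, 0 to 1 at 30 min, 0 to 3 at 60 min, 0 to 5 at 120 min and 2 to 5 at 240 min, each against 0 min, from 1 to 4 at 240 min against 30 min, 0 to 2 at 60 min against 30 min and 0 to 1 at 240 min against 120 min. Each of these fits had 2 libraries a time and few degrees of freedom. Over all genes 340 were called over time without course 2 and 475 without course 3, against 1241 with all 3 courses. Without course 1 there were 2065. Against 0 min the all-gene counts of these fits ranged from 4 to 778 at 5 min and 666 to 1576 at 30 min. They ranged from 162 to 1131 at 60 min, 81 to 1082 at 120 min and 375 to 1420 at 240 min. At 240 min against 30 min they were 77 to 682. The other steps had 0 to 210 (60 against 30 min) and 1 to 83 (240 against 120 min). Each fit tested 5875 to 6319 genes. The cause of these losses and gains was not tested.

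Of the named calls in the lists around the members, those of ROX1, MOT3, PHR1, MAG1, WTM1 and YNK1 at 240 min against 0 min were lost without course 2, all in the same direction.

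With the replicate block 1 member was called at 60 min against 0 min and 2 at 60 min against 30 min, each with RNR3. Over all genes 940 and 194 of 6262 were called in those steps. RNR2 was added at 240 min against 30 min and DIF1 over time, and the block changed no other call of a member. Within courses the exact sign-flip test of the subunit shares cannot go below 0.25. The shares are ratios within a library, so that only leaving out a course or the division by coding length can move them, and their differences then moved by less than 1 SD between libraries. HUG1 counts of 8 to 146 up to 60 min limit its early values.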
